A study of Homo sapiens with 24 samples.

Results

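The comparison described here asks whether the joint effect of CX-5461 and panobinostat on gene expression in the myeloma line MM1.S equalled the sum of the effects of the single drugs. It uses 12 of the 24 libraries of the series, namely all MM1.S libraries, in 4 groups of 3, each treated for 24 h: vehicle alone, CX-5461 (500 nM), panobinostat (50 nM), or the pair at the same doses. For each gene the departure from additivity was taken as the log2 level with both drugs, minus that with CX-5461, minus that with panobinostat, plus that with vehicle. Of 28395 genes in the count table, 12030 passed the expression filter and were tested. The members were thus set by the labels and the filter, and not by any measured difference. MM1.S is an established line of malignant plasma cells labelled as p53 wild type. JJN3, a second myeloma line labelled as p53 null and given the same 4 treatments, was used only for the closing comparison. Libraries were made by 3′ RNA sequencing of polyA RNA, so the ribosomal RNA made by RNA polymerase I was not measured. Nothing in the labels tells separate cultures from repeat libraries. The p-values reflect only how far libraries vary within groups, pooled over the groups of a fit, and that variation may thus be technical.

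CX-5461 is an inhibitor of RNA polymerase I, the enzyme that copies the ribosomal RNA genes. Loss of ribosomal RNA synthesis leaves ribosomal proteins unassembled, and some of these bind MDM2, a ligase that otherwise sends p53 to the proteasome, so that p53 accumulates and switches on genes of cell cycle arrest, repair and apoptosis. Panobinostat inhibits histone deacetylases, which raises histone acetylation and changes the transcription of a large share of the genome, in both directions. A departure of 0 means that the fold change with both drugs was the product of the fold changes with each drug. A negative departure means that the level with both drugs was below that product, and a positive one that it was above it. The departure is also the effect of CX-5461 on top of panobinostat minus its effect against vehicle. Equally, it is the effect of panobinostat on top of CX-5461 minus its effect against vehicle.

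Total counts ranged from 4912481 to 7305069 per library, with a median of 5551875.5. Of the variance, 85.8% lay on the first principal component, which parted the 6 libraries with panobinostat from the 6 without. All 10 plasma cell markers examined were above 1 CPM (counts scaled to library size) with vehicle, and 0 of 10 T and NK cell markers were, 5 of them (CD3D, CD3G, CD7, CD8A and NKG7) with no counts there. Panobinostat replicate 1 stood apart from replicates 2 and 3 of its group: the chi-square per degree of freedom between their counts was 9.97 and 8.01, against 4.76 between replicates 2 and 3. On the third component (2.58% of the variance) it lay at 6.88 and the other panobinostat libraries at -19.7 and -13.7. The panobinostat group enters every departure, so counts are given below with all libraries and, where they differ much, without this one. The 10 plasma cell markers summed to between 8914 and 9768 CPM with vehicle and between 1109 and 1306 CPM with panobinostat, and the part of this shift in the results was not tested. In bulk RNA, fewer cells of a kind and less RNA per cell cannot be told apart.

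Most genes that departed from additivity had log2 changes of the same sign with each drug, and the pair moved them less than the sum. The single-drug changes are terms of the departure and come from the same libraries, so this pattern is a description and not a test. Of 12030 genes, 225 (1.87%) departed above 0 and 439 (3.65%) below 0 by edgeR's quasi-likelihood test with Benjamini-Hochberg adjustment. Of these, 37 and 260 departed at least 2-fold. Among the 225 above 0, 187 had negative log2 fold changes with each drug alone, beside 3303 of all 12030 genes. Over all 225 the median change was -0.47 for CX-5461, -0.85 for panobinostat and -0.65 for the pair. Among the 439 below 0, 317 had positive changes with each drug, and 117 were higher with CX-5461 and lower with panobinostat. Among all 12030 genes these numbers were 3719 and 2400. Over all 439 the medians were 0.94, 0.89 and 0.68. The median departure of all genes tested was -0.016.

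A departure of this kind can depend on the log scale. On the linear CPM scale, all 225 genes that departed above 0 also had a positive difference of differences. Of the 439 below 0, 425 were negative and 14 positive there. Many of these signs follow by arithmetic from the log2 departure and are no separate check. That holds for the 187 genes above 0 with negative changes for each drug. It also holds for the 117 below 0 that were higher with CX-5461 and lower with panobinostat. Of the 439, 48 had under 10 counts in at least 1 group and 5 had a group with none. Without panobinostat replicate 1 the counts were 418 above 0 and 624 below, and 622 of the genes called with all libraries were called again.

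The departure is the same number whichever drug is taken as the added one, but the drugs differed in how large their own effects were. CX-5461 against vehicle and CX-5461 added to panobinostat share no library, and neither do the panobinostat contrasts. CX-5461 alone raised 1165 genes (9.68%) and lowered 849 (7.06%), while added to panobinostat it raised 293 (2.44%) and lowered 198 (1.65%). Of the genes it raised alone, 112 were also raised on top of panobinostat, which is 9.61% of the first set and 38.2% of the second, and 11 moved the opposite way. The 1165 genes had a median log2 fold change of 0.78 alone and 0.13 on top of panobinostat. Of the 849 it lowered alone, 59 were also lowered on panobinostat (6.95% and 29.8% of the sets), with medians of -0.48 and -0.12. Without panobinostat replicate 1, CX-5461 on panobinostat raised 616 genes and lowered 561, of which 171 and 155 were shared with CX-5461 alone, and the medians were 0.74 and 0.12 for genes raised and -0.45 and -0.13 for genes lowered. With library size alone as scaling, the share of raised genes among those called was 75.2% in place of 57.8% for CX-5461 alone and 72.8% in place of 59.7% on panobinostat.

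Over all genes tested, the effect of panobinostat was similar with and without CX-5461, though not for every list (p53 targets, below). Its effects were larger than those of CX-5461, so a departure of a given size changed them by a smaller share. This bears on the overlaps and correlations given here. Against vehicle it raised 4439 genes (36.9%) and lowered 3960 (32.9%), and added to CX-5461 it raised 4320 (35.9%) and lowered 4073 (33.9%). Of these, 3692 were raised in both settings and 3397 lowered in both. Across 8458 genes whose average log2 CPM was at least 3, Pearson's r between the panobinostat effects was 0.93, and between the CX-5461 effects 0.25, given as a description since genes are not independent. The SD of the CX-5461 effect over these genes was 0.45 alone and 0.29 on panobinostat, and that of panobinostat was 1.33 alone and 1.27 on CX-5461. The combination differed from vehicle for 8442 genes (70.2%).

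**Figure D1:**
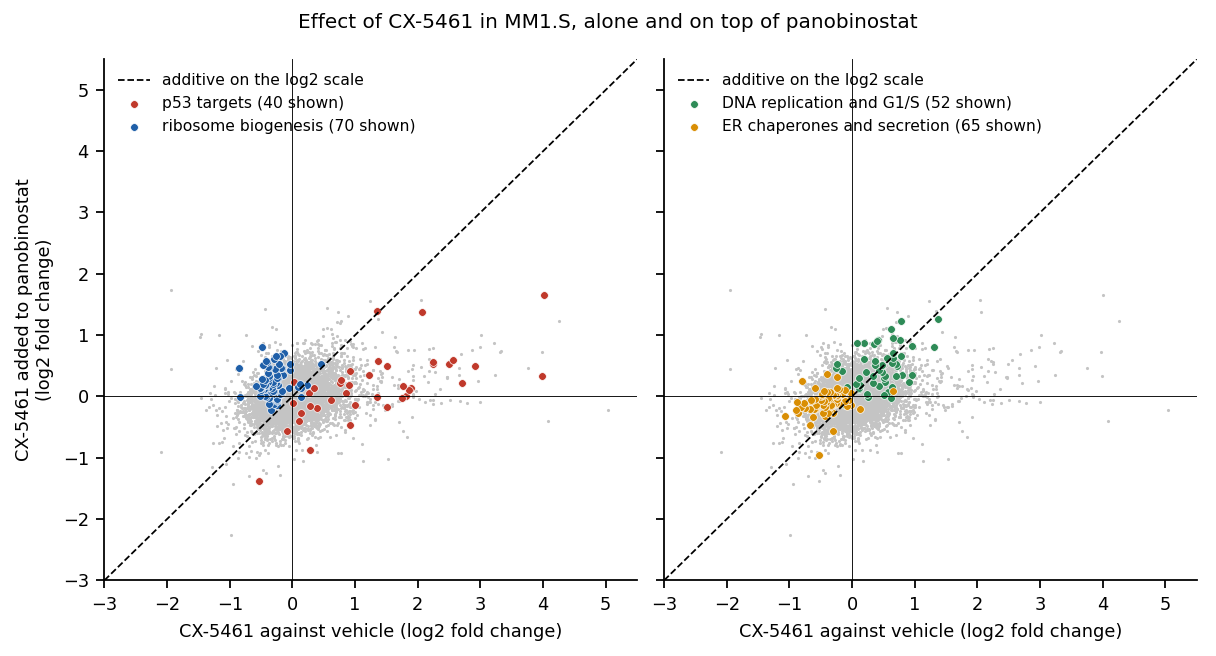
Log2 fold change of CX-5461 against vehicle (x axis) and of CX-5461 added to panobinostat (y axis) in MM1.S, for genes whose average log2 CPM was at least 3 (grey points; 5 of 8458 lie outside the axes), with gene lists in colour. Genes on the dashed line are additive: of the p53 targets shown 38 of 40 lie under the line, of the ribosome biogenesis genes 68 of 70 lie above it, and of the replication genes 27 of 52 do.

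CX-5461 raised most p53 targets when given alone and few of them once panobinostat was present. The list was chosen with earlier results of these data known, so its direction is a description. Of 48 targets tested, 27 departed below 0 and 0 above, against 3.65% and 1.87% of all genes, and the median departure was -1.04 against -0.016 over all genes. CX-5461 alone raised 34 of the 48 (median 1.28), beside 9.68% of all genes. Added to panobinostat it raised 8 and lowered 2 (median 0.13), beside 2.44% and 1.65%. Panobinostat alone raised 18 and lowered 16 (median 0.13), beside 36.9% and 32.9% of all genes. Added to CX-5461 it raised 2 and lowered 37 (median -1.13), beside 35.9% and 33.9%. Without panobinostat replicate 1, 28 of 49 departed below 0, and CX-5461 on panobinostat raised 11 and lowered 5.

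CDKN1A (NCBI Gene 1026) encodes p21, the inhibitor of cyclin-dependent kinases that stops the cell cycle. The vehicle libraries held 47.4, 38.8 and 51.8 CPM of it, those with CX-5461 679.7, 767 and 756, those with panobinostat 131, 88.3 and 111, and those with both 132, 130.5 and 151. The CX-5461 libraries thus stood far above all others, and the combination libraries overlapped those with panobinostat alone. Additivity would have placed the combination at 1756 CPM, and the departure was -3.66 ± 0.18 on the log2 scale (edgeR adjusted p = 6.33e-13). The effect of CX-5461 was 3.99 ± 0.14 alone and 0.33 ± 0.12 on panobinostat (edgeR adjusted p = 0.136; 0.46 and 0.0124 without panobinostat replicate 1).

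Among p53 targets of apoptosis, CX-5461 libraries were the highest for BBC3 and PMAIP1. BBC3 (NCBI Gene 27113), which encodes PUMA, an activator of cell death at mitochondria, was at 69.3, 94.3 and 78.3 CPM with vehicle, 420.4, 499 and 440.4 with CX-5461, 133, 133 and 145 with panobinostat and 201, 187 and 202 with both. Here the combination libraries lay above those with panobinostat and far below those with CX-5461, with a departure of -1.97 ± 0.15 (edgeR adjusted p = 4.98e-09) and an effect of CX-5461 of 2.49 ± 0.11 alone and 0.52 ± 0.11 on panobinostat. PMAIP1, which encodes NOXA, a blocker of the survival protein MCL1, was at 35, 38.0 and 31.0 CPM with CX-5461 and 9.84, 15.3 and 18.6 with both, without overlap, and departed by -2.49 ± 0.38. The death receptor gene TNFRSF10B was raised by each drug, to 89.9, 102 and 94.2 CPM with CX-5461 and 76.2, 59.9 and 77.7 with panobinostat from 18.5, 17.5 and 24.1 with vehicle. Its combination libraries, at 107, 86.6 and 115, overlapped those with CX-5461, and the departure was -1.72 ± 0.19 (edgeR adjusted p = 1.64e-06). FAS, another death receptor gene, was at 11.6, 15.0 and 11.8 CPM with CX-5461 and under 1 CPM in all 6 libraries with panobinostat, with a departure of -1.47 ± 0.87 that did not pass (edgeR adjusted p = 0.368).

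Panobinostat alone lowered the repair gene DDB2 and raised XPC. DDB2, a sensor of ultraviolet damage, was at 33.8, 30.0 and 35 CPM with vehicle, 188, 197 and 199 with CX-5461, 18.5, 18.6 and 19.6 with panobinostat and 31.0, 23.6 and 31.4 with both. The combination group overlapped vehicle, and the departure was -1.96 ± 0.17. XPC, which finds distorted DNA in the same repair pathway, rose with each drug, by 1.22 with CX-5461 and 0.63 with panobinostat on the log2 scale, and by 0.98 with both, a departure of -0.87 ± 0.16 (edgeR adjusted p = 0.00116). FDXR, a mitochondrial electron donor, departed by -2.43 ± 0.24 and ZMAT3, an RNA-binding protein, by -1.60 ± 0.18. ZMAT3 shows the pattern of a gene raised more by panobinostat: 6.80, 7.89 and 8.79 CPM with vehicle, 25.6, 25.1 and 29.1 with CX-5461, 64.6, 68.5 and 67.8 with panobinostat and 71.5, 80.1 and 73.0 with both.

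PHLDA3 and GDF15 also had large responses to CX-5461 alone, and the smaller part of these remained on panobinostat. PHLDA3, which restrains AKT at the membrane, was at 13.4, 17.3 and 27.9 CPM with vehicle, 311, 330.2 and 309.8 with CX-5461, 2.41, 2.28 and 3.39 with panobinostat and 8.51, 7.65 and 9.41 with both. Its combination libraries lay below all vehicle libraries although CX-5461 still raised it on panobinostat, by 1.65 in place of 4.01, a departure of -2.35 ± 0.38 (edgeR adjusted p = 4.26e-04). GDF15, a secreted stress cytokine, reached 56.0, 50.7 and 44.6 CPM with CX-5461 and 4.35, 2.49 and 6.27 with both, from 0.523, 0 and 0.664 with vehicle. The departure of -5.75 ± 0.63 (edgeR adjusted p = 1.77e-06) rests on a vehicle group with 7 counts in all.

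MDM2 (NCBI Gene 4193) kept most of its response. It was at 346, 289.7 and 405 CPM with vehicle, 1378, 1509 and 1458 with CX-5461, 144, 185 and 215 with panobinostat and 470.0, 396 and 554 with both. The combination libraries lay above all 3 panobinostat libraries and overlapped vehicle. CX-5461 raised MDM2 by 2.06 ± 0.14 alone and 1.38 ± 0.14 on panobinostat, and the departure of -0.68 ± 0.20 was near the threshold (edgeR adjusted p = 0.0476); leaving out any of 9 libraries in turn ended the call, with adjusted p up to 0.144, as did the size factors of DESeq2, library size alone, and leaving out the 10 most abundant genes. AEN, a nuclease of apoptosis, was likewise raised on panobinostat, by 1.39. The start of MDM2 in the RefSeq promoter table (GRCh38.p14) is among the few in this list with the p53 consensus. The stretch is shown for that reason, at chr12:68808888-68808977 on the plus strand, with the match, which has 2 mismatches, in capitals.
MDM2: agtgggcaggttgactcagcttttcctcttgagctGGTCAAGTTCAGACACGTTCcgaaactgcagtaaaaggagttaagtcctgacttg
The consensus is a pair of adjacent 10-base elements, searched with at most 2 mismatches, no spacer and a fixed core, in the 250 bases before each start. It occurred in 0.289% of 9705 tested genes with a promoter entry and in 4 of 36 p53 targets with an entry (AEN, DCP1B, FAS and MDM2). Among the 22 targets with an entry that departed below 0 it occurred in 1. A match is a description of these letters and not a bound site.

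**Figure D2:**
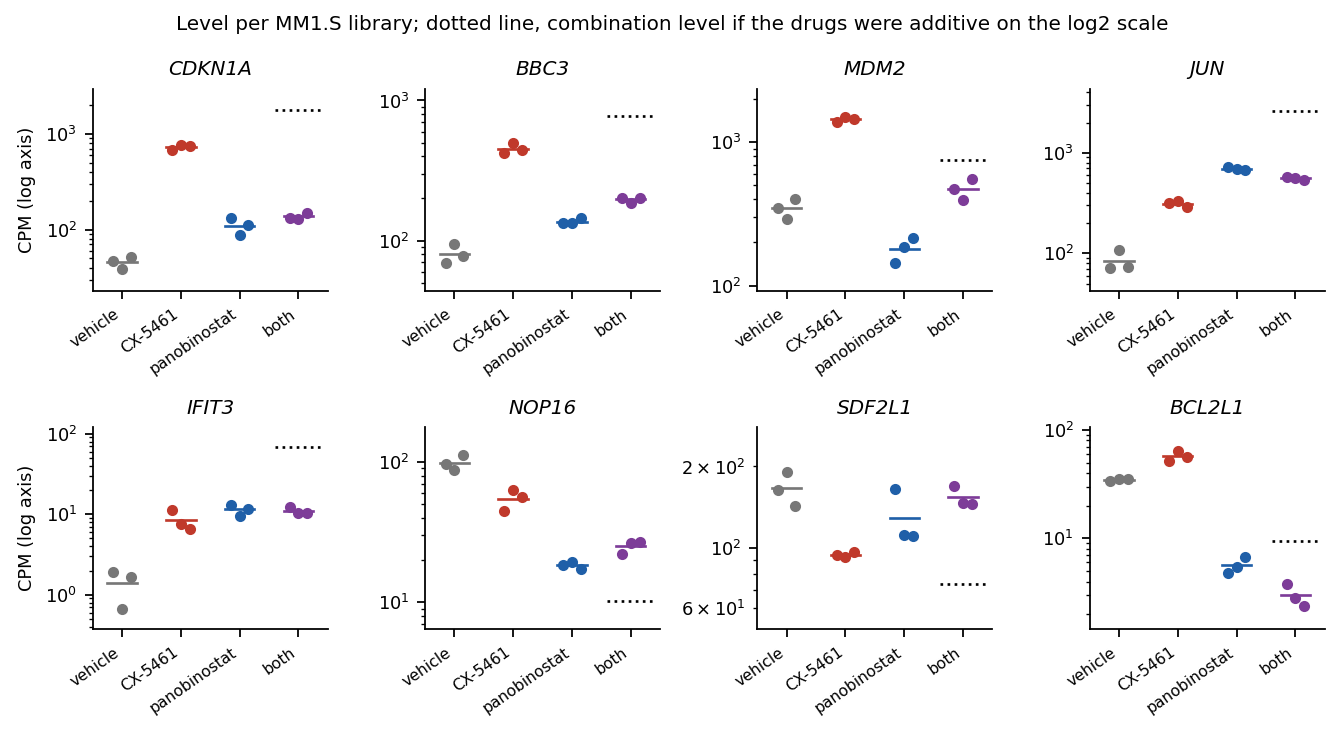
Level of 8 genes in each MM1.S library (points; CPM on a log axis) in the 4 groups, with group means as bars and the additive level of the combination as a dotted line. For CDKN1A, BBC3, MDM2, JUN, IFIT3 and BCL2L1 the combination libraries lie below the dotted line, and for NOP16 and SDF2L1 above it.

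The BCL2 family sets the threshold of mitochondrial cell death. Of 9 pro-apoptotic members 3 departed below 0 (BBC3, PMAIP1 and BMF) and 0 above (median -1.02), beside 3.65% and 1.87% of all genes. BMF, an activator linked to the cytoskeleton, was raised by each drug but was at 58.7, 82.1 and 72.9 CPM with both, against 68.8, 59.7 and 69.2 with CX-5461 and 82.1, 99.6 and 91.1 with panobinostat. The combination overlapped each single-drug group, and the departure was -1.35 ± 0.18 (edgeR adjusted p = 1.97e-05). BCL2L11 (BIM) had a departure of -0.48 ± 0.23 that did not pass (edgeR adjusted p = 0.265; 0.0332 without panobinostat replicate 1).

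Of 9 anti-apoptotic genes 2 departed below 0, BCL2L1 and BIRC3, and 0 above (4 below without panobinostat replicate 1). The shares of all genes were 3.65% and 1.87%. BCL2L1 (NCBI Gene 598), which encodes the survival protein BCL-XL, was at 33.5, 35.3 and 35.2 CPM with vehicle, 51.8, 64.5 and 56.4 with CX-5461, 4.83, 5.43 and 6.78 with panobinostat and 3.78, 2.83 and 2.4 with both. All 3 combination libraries lay below the 9 others. CX-5461 raised the gene alone, by 0.73 ± 0.13, and lowered it on panobinostat (log2 change -0.92 ± 0.25) (edgeR adjusted p = 0.0306), so that the departure was -1.65 ± 0.28 (edgeR adjusted p = 4.26e-04). BIRC3, an inhibitor of apoptosis and a target of NF-kB, also changed sign, from 0.89 ± 0.11 alone to -0.38 ± 0.11 on panobinostat, with a departure of -1.26 ± 0.15. MCL1 and BCL2, survival genes of the same family, had departures of -0.40 ± 0.13 and -0.42 ± 0.22 that did not pass (edgeR adjusted p = 0.0653 and 0.310), and without panobinostat replicate 1 both passed (edgeR adjusted p = 0.0245 and 0.0480). MCL1 fell when CX-5461 was added to panobinostat (log2 change -0.38 ± 0.091), from 1080.5, 1179 and 1124 to 819, 927 and 858 CPM without overlap.

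Immediate early genes, the first genes switched on by growth and stress signals, were raised by CX-5461 alone for 18 of 33, beside 9.68% of all genes, and by panobinostat alone for 20, beside 36.9%. For the pair, 11 departed below 0 and 0 above (median -0.63), beside 3.65% and 1.87% of all genes. JUN, a subunit of the transcription factor AP-1, was at 70.8, 108 and 72.5 CPM with vehicle, 315, 334 and 289 with CX-5461, 729, 686 and 682 with panobinostat and 575, 559 and 537 with both. The combination libraries lay below all those with panobinostat, and the departure was -2.23 ± 0.17 (edgeR adjusted p = 4.98e-09). IER5, a regulator of the heat shock response, reached 1293, 1311 and 1257 CPM with CX-5461 and 720.5, 706 and 689 with both, from 290.3, 312 and 328 with vehicle. It departed by -1.58 ± 0.13 (edgeR adjusted p = 9.33e-09), and CX-5461 still raised it on panobinostat, by 0.47 ± 0.090.

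BTG2, a brake on proliferation that is also a p53 target, ended lower with the pair than with either drug. It was at 229.9, 224 and 233 CPM with vehicle, 278, 299 and 262 with CX-5461, 263, 344 and 278 with panobinostat and 162, 169 and 153 with both. All 3 combination libraries lay below the 9 others, and the departure was -1.16 ± 0.14 (edgeR adjusted p = 8.77e-06). EGR1 and FOS, which were nearly silent with vehicle and were raised by panobinostat, had departures of -1.92 ± 0.71 and -2.02 ± 1.10 that did not pass (edgeR adjusted p = 0.121 and 0.327). On the linear scale the difference of differences was 5.18 CPM for EGR1 and -0.975 CPM for FOS.

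In the integrated stress response, ATF4 raises genes of amino acid supply and, under lasting stress, of cell death. Of 42 members 3 departed below 0 and 2 above (median -0.067), beside 3.65% and 1.87% of all genes. Without vehicle replicate 2 the count below 0 was 14 and the median -0.46. The count above 0 was 0 without combination replicate 3, and 1 without CX-5461 replicate 1 or 3, panobinostat replicate 2 or 3, or combination replicate 1. The 3 below 0 were ATF3, DDIT3 and PPP1R15A. DDIT3, the pro-apoptotic factor CHOP, was at 3.49, 7.67 and 4.31 CPM with vehicle, 38.6, 46.0 and 37.2 with CX-5461, 15.1, 14.5 and 20.0 with panobinostat and 30.7, 31.1 and 37.6 with both. CX-5461 raised it in both settings, by 3.02 alone and 1.00 ± 0.17 on panobinostat (edgeR adjusted p = 0.00130), with a departure of -2.01 ± 0.28. ATF3, a transcription factor of the same response, departed by -2.35 ± 0.41 (edgeR adjusted p = 0.00947), and PPP1R15A, which restores translation, by -1.43 ± 0.21. Those above 0 were the amino acid transporter SLC7A5, at 1.75 ± 0.41, and PYCR1 of proline synthesis, at 1.26. SLC7A5 had 33.3, 66.0 and 48.6 CPM with vehicle, 23.6, 30.9 and 33.1 with CX-5461, 5.63, 2.80 and 5.84 with panobinostat and 8.89, 7.48 and 12.2 with both, and its call was lost without combination replicate 3 (edgeR adjusted p = 0.0506).

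Interferon-stimulated genes form the antiviral program switched on by interferon signalling. They departed below 0 for 10 of 36 members and above for 0 (median -0.60), beside 3.65% and 1.87% of all genes. The count below 0 was 6 without CX-5461 replicate 1 and 14 of 38 without panobinostat replicate 1, the extremes over the 12 libraries. CX-5461 alone raised 12 and lowered 0, beside 9.68% and 7.06% of all genes. On panobinostat it raised 1 and lowered 3, beside 2.44% and 1.65%. Many of these genes carry the interferon-stimulated response element (ISRE) before their start. It was searched as GAAANNGAAA on both strands in the 250 bases before each RefSeq start (GRCh38.p14). The letters occurred in 3.33% of 9705 tested genes with an entry and in 18 of 30 interferon-stimulated genes with an entry (60%). Among the 8 of these that departed below 0 they occurred in 5 (62.5%). A match is a description of these letters only. The stretches below are those of 4 genes that departed below 0, with the ISRE letters in capitals, which read TTTC first where the match is on the opposite strand.
IFIT3: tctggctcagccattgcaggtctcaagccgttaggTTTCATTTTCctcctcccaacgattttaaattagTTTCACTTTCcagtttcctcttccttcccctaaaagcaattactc
CXCL10: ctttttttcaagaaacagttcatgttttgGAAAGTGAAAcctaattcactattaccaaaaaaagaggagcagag
PARP14: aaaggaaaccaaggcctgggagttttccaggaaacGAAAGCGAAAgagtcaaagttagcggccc
PARP9: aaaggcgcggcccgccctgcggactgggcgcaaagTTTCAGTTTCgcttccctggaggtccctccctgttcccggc
They lie at chr10:89327806-89327919 (plus strand), chr4:76023674-76023747 (minus strand), chr3:122680775-122680838 (plus strand) and chr3:122564301-122564376 (minus strand). PARP9 and PARP14 encode ADP-ribosyltransferases of the interferon response.

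IFIT3, an antiviral RNA-binding adaptor whose window above holds 2 such matches, was at 1.92, 0.658 and 1.66 CPM with vehicle, 11.3, 7.55 and 6.6 with CX-5461, 13.1, 9.63 and 11.7 with panobinostat and 12.3, 10.5 and 10.3 with both. The 3 treated groups overlapped and all lay above vehicle. The departure was -2.56 ± 0.39 (edgeR adjusted p = 1.58e-04), against an additive level of 68.7 CPM. DTX3L, the ubiquitin ligase partner of PARP9, was at 17.8, 15.8 and 23.1 CPM with vehicle, 65.5, 60.7 and 67.4 with CX-5461, 37.6, 38.5 and 45.7 with panobinostat and 27.6, 22.6 and 32.8 with both. CX-5461 raised it alone, by 1.76 ± 0.15, and lowered it on panobinostat (log2 change -0.56 ± 0.15), with a departure of -2.32 ± 0.21 (edgeR adjusted p = 5.60e-08). PARP14 was at 45.5, 38.0 and 45.2 CPM with CX-5461, 37.0, 51.0 and 47.4 with panobinostat and 34.8, 44.5 and 35.6 with both, in overlapping ranges, and departed by -1.08 ± 0.20.

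CXCL10, a chemokine that draws T cells, was raised by CX-5461 alone and did not pass on panobinostat. It was at 2.27, 1.10 and 1.66 CPM with vehicle, 14.5, 16.5 and 13.6 with CX-5461, 0.805, 1.93 and 1.88 with panobinostat and 2.46, 2.66 and 0.553 with both. The CX-5461 libraries stood apart and the other groups overlapped, with a departure of -2.82 ± 0.59 (edgeR adjusted p = 0.00404). Of 27 subunits and targets of the inflammatory factor NF-kB, 3 departed below 0 (CXCL10, BIRC3 and RELB) and 0 above, with a median of -0.31. The shares of all genes were 3.65% and 1.87%, and 6 of the 27 departed below 0 without panobinostat replicate 1. RELB, a subunit of the alternative NF-kB pathway, was at 42.7, 41.2 and 40.5 CPM with vehicle, 102, 119 and 115 with CX-5461, 47.7, 43.3 and 38.6 with panobinostat and 58.1, 54.2 and 56.3 with both. The CX-5461 libraries were highest and the combination second, with a departure of -1.05 ± 0.15 (edgeR adjusted p = 8.02e-05).

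Of 72 genes of ribosome biogenesis, 20 departed above 0 and 0 below, beside 1.87% and 3.65% of all genes. The median was 0.56 (quartiles 0.32 and 0.70). CX-5461 alone lowered 25 and raised 0 (median -0.31), beside 7.06% and 9.68% of all genes. On panobinostat it raised 7 and lowered 0 (median 0.19), beside 2.44% and 1.65%. Panobinostat alone lowered 64, beside 32.9% of all genes. Without panobinostat replicate 1, 35 departed above 0 and 0 below, and CX-5461 on panobinostat raised 15. The count above 0 fell to 9 without combination replicate 1, to 11 without CX-5461 replicate 1 or panobinostat replicate 3, and to 13 without vehicle replicate 3.

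NOP16 (NCBI Gene 51491), a nucleolar factor of the large ribosomal subunit, was at 96.6, 88.1 and 112 CPM with vehicle, 45.0, 62.8 and 56.4 with CX-5461, 18.3, 19.4 and 17.3 with panobinostat and 21.9, 26.6 and 27.1 with both. The panobinostat libraries were the lowest and the combination lay above them without overlap, against an additive level of 10.1 CPM, so that the departure was 1.32 ± 0.20 (edgeR adjusted p = 1.08e-04). MDN1, the AAA ATPase that drives release of factors from the large subunit, was at 32.6, 25.6 and 27.7 CPM with panobinostat and 44.1, 39.1 and 39.7 with both. CX-5461 lowered it alone (log2 change -0.47 ± 0.13), and raised it on panobinostat, by 0.52 ± 0.13 (edgeR adjusted p = 0.0267). RRP15, a factor of ribosomal RNA processing, likewise went from -0.39 ± 0.12 alone to 0.48 ± 0.13 on panobinostat, a departure of 0.87 ± 0.18. NPM1, nucleophosmin, departed by 0.58 ± 0.14 and MRTO4, another factor of ribosome biogenesis, by 0.97 ± 0.22. The call of each was lost without combination replicate 1 (edgeR adjusted p = 0.0599 and 0.0505).

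RNA polymerase I and its factors had 2 of 21 genes that departed above 0, the subunits POLR1C (1.01 ± 0.19) and POLR1F (0.63 ± 0.14), and 0 below. The shares of all genes were 1.87% and 3.65%. CX-5461 added to panobinostat raised 5 of the 21, beside 2.44% of all genes. POLR1F was at 85.8, 96.5 and 90.8 CPM with vehicle, 75.4, 76.6 and 79.4 with CX-5461, 83.7, 77.6 and 72.8 with panobinostat and 105, 102 and 101 with both, so that all combination libraries lay above the 9 others. The factor UBTF and the catalytic subunit POLR1A had departures of 0.46 ± 0.19 and 0.27 ± 0.31 that did not pass (edgeR adjusted p = 0.172 and 0.703; with the replicate number as a block UBTF passed). Cytosolic ribosomal proteins lay near 0, with a median of 0.066 and 1 of 78 above 0, beside 1.87% of all genes. That gene, RPL36A (0.73 ± 0.21), has near-identical copies and lost its call without any of 7 libraries in turn, panobinostat replicate 1 among them (edgeR adjusted p up to 0.137). MYC, the transcription factor that drives ribosome synthesis, had no departure that passed: it was at 37.7, 36.2 and 53.8 CPM with vehicle, 15.8, 23.5 and 22.2 with CX-5461, 2.21, 4.73 and 3.76 with panobinostat and 1.89, 1.83 and 1.29 with both. Each drug alone lowered it, the additive level was 1.72 CPM, and the departure was -0.046 ± 0.36 (edgeR adjusted p = 0.970). Of 44 genes of its network and targets 9 departed above 0 and 2 below (median 0.38), beside 1.87% and 3.65% of all genes. The count above 0 was 3 without vehicle replicate 3 or combination replicate 1, 5 without CX-5461 replicate 1 or 2 or panobinostat replicate 2 or 3, and 16 without panobinostat replicate 1. Those above 0 include NOP16, MRTO4 and NPM1 of the ribosome list. The 2 below 0 were MXD1 and MXD3, which compete with MYC for its partner MAX, and 1 was left without any of 6 libraries in turn (vehicle replicate 1, CX-5461 replicates 2 and 3, panobinostat replicate 3, and combination replicates 1 and 2).

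**Figure D3:**
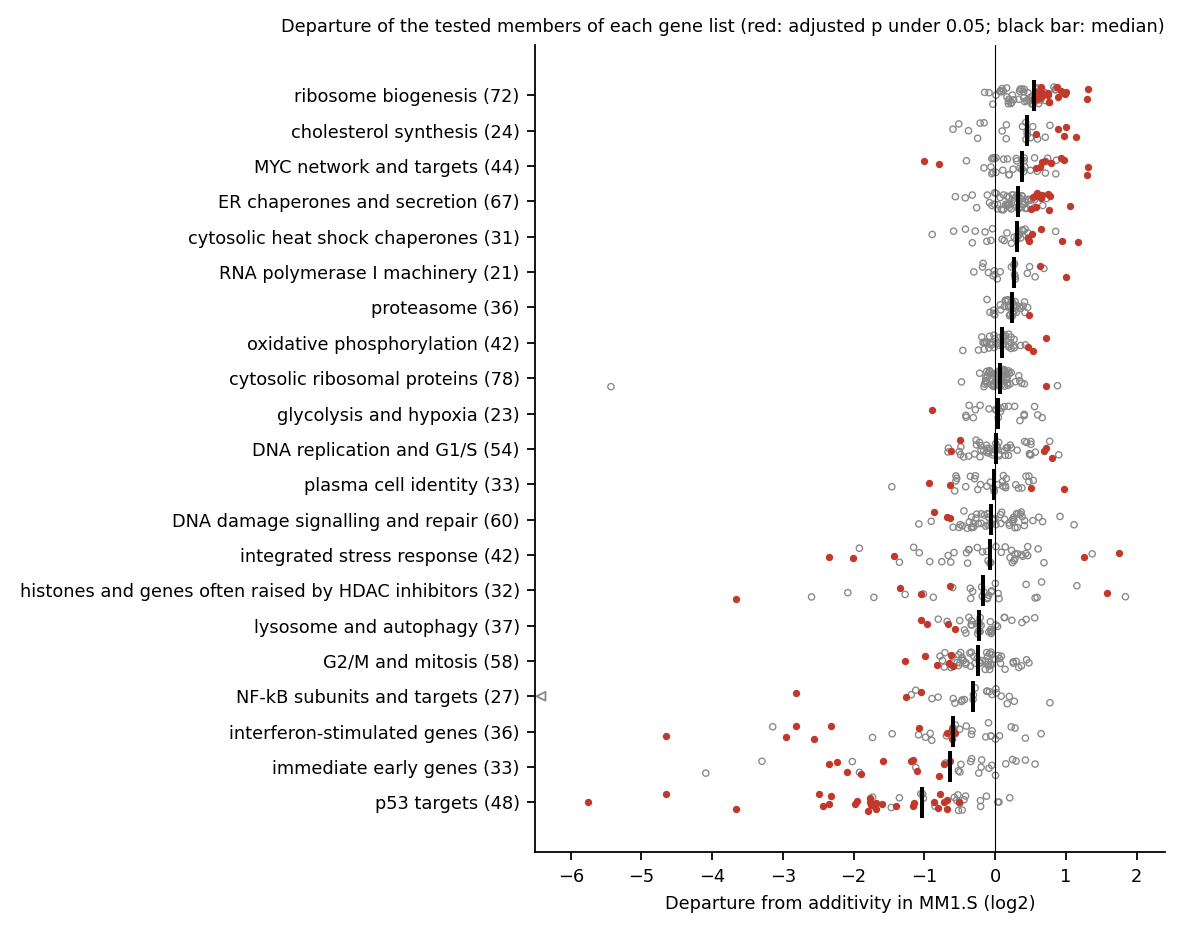
Departure from additivity in MM1.S (x axis, log2) of each tested member of 21 gene lists (rows, with the number of members), with members past the threshold in red, the others open, and the median as a black bar; 1 member left of the axis is drawn as a triangle. The p53 targets have a median of -1.04 and ribosome biogenesis of 0.56; immediate early and interferon-stimulated genes have medians of -0.63 and -0.60.

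The secretory pathway is the route by which plasma cells export antibody. Of 67 genes for folding and export in the endoplasmic reticulum (ER), 12 departed above 0 and 0 below, beside 1.87% and 3.65% of all genes. The median was 0.32, and without panobinostat replicate 1 the counts were 21 and 1 of 68. Only 7 departed above 0 without CX-5461 replicate 1 or combination replicate 1. CX-5461 alone lowered 40 of them, beside 7.06% of all genes. On panobinostat it lowered 3, beside 1.65% of all genes, and raised 0. SDF2L1, a partner of ER chaperones, was at 164, 191 and 143 CPM with vehicle, 94.5, 92.9 and 96.7 with CX-5461, 165, 111 and 111 with panobinostat and 169, 147 and 145 with both. The CX-5461 libraries were lowest, and the combination overlapped both vehicle and panobinostat, with a departure of 1.06 ± 0.19 (edgeR adjusted p = 9.01e-04). SSR1, a subunit of the translocon complex, departed by 0.65 ± 0.12 and SRPRB, of the signal recognition particle receptor, by 0.76 ± 0.15. For HSPA5, the main ER chaperone, the departure was 0.59 ± 0.17 (edgeR adjusted p = 0.0340), and it was lost without any of 7 libraries in turn (adjusted p up to 0.118).

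Of 24 cholesterol synthesis genes, CX-5461 alone lowered 13 (median -0.56), beside 7.06% of all genes, and on panobinostat it lowered 1 (median -0.16), beside 1.65%. For 5 of the 24 the departure was above 0 and passed, and for 0 below, beside 1.87% and 3.65% of all genes. Without panobinostat replicate 1, 9 departed above 0. DHCR7, which makes cholesterol in the last step, was at 57.7, 52.0 and 58.7 CPM with vehicle, 28.8, 28.9 and 31.7 with CX-5461, 58.5, 42.2 and 42.2 with panobinostat and 52.4, 47.0 and 48.7 with both. The CX-5461 libraries lay below the other 3 groups, which overlapped, and the departure was 0.97 ± 0.18 (edgeR adjusted p = 0.00122). MSMO1, a sterol oxidase, departed by 1.15 ± 0.20 (edgeR adjusted p = 8.21e-04).

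Cytosolic heat shock chaperones fold proteins outside the ER. They departed above 0 for 6 of 31 members and below for 0 (median 0.32), beside 1.87% and 3.65% of all genes. Departures above 0 numbered 3 without vehicle replicate 3, CX-5461 replicate 2, panobinostat replicate 2 or 3, or combination replicate 1, and 8 without panobinostat replicate 1. HSPH1, a nucleotide exchange factor of HSP70, was at 151, 149 and 141 CPM with vehicle, 103, 113 and 95.3 with CX-5461, 38.4, 36.8 and 25 with panobinostat and 60.9, 56.5 and 42.1 with both. CX-5461 lowered it alone (log2 change -0.51 ± 0.13), and raised it on panobinostat, by 0.67 ± 0.15 (edgeR adjusted p = 0.00866), a departure of 1.18 ± 0.19. AHSA1, an activator of HSP90, departed by 0.95 ± 0.14 and STIP1, which links HSP70 to HSP90, by 0.64 ± 0.15. Proteasome genes had a median of 0.24 with 1 of 36 above 0, beside 1.87% of all genes. Without 1 library in turn that count was 3 without panobinostat replicate 1, 1 without vehicle replicate 1 or CX-5461 replicate 3, and 0 without any of the other 9.

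On DNA replication genes, CX-5461 acted with similar size in both settings. It raised 27 of 54 alone (median 0.48) and 19 on panobinostat (median 0.45), beside 9.68% and 2.44% of all genes. It lowered 0 and 0, beside 7.06% and 1.65%. The median departure was 0.0093, with 3 genes above 0 and 2 below, beside 1.87% and 3.65% of all genes. The count above 0 was 1 without vehicle replicate 3, panobinostat replicate 2 or combination replicate 3, and 5 without panobinostat replicate 1 or combination replicate 2. The count below 0 was 2 without CX-5461 replicate 2, panobinostat replicate 2 or combination replicate 3, 1 without vehicle replicate 2, panobinostat replicate 1 or combination replicate 1, and 0 without any 1 of the remaining 6. Those above 0 were MCM2, MCM5 and MCM6, subunits of the replicative helicase, and those below 0 were CDT1, which loads it, and RRM1 of nucleotide supply. MCM2 was at 142, 132 and 157 CPM with vehicle, 159.5, 164 and 166 with CX-5461, 28.8, 24.5 and 29.4 with panobinostat and 53.5, 42.4 and 55.3 with both. CX-5461 thus had an effect of 0.18 ± 0.10 alone (edgeR adjusted p = 0.249) and 0.87 ± 0.12 on panobinostat (edgeR adjusted p = 1.22e-04), a departure of 0.69 ± 0.16. Without 1 of the libraries in turn the calls of MCM5 and MCM6 were lost for 5 and 3 of 12 libraries (adjusted p up to 0.0855 and 0.0828). E2F1, a transcription factor of these genes, was raised by CX-5461 in both settings, by 0.76 ± 0.19 and 0.92 ± 0.24, with a departure of 0.16 ± 0.31 that did not pass.

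Of 58 mitotic genes, 6 departed below 0 and 0 above, beside 3.65% and 1.87% of all genes. The median was -0.24, and without panobinostat replicate 1 the count below 0 was 10 of 59. Without CX-5461 replicate 3 the list gave 2 below and 2 above, and without combination replicate 2 it gave 2 below and 1 above. The count below 0 was 3 without vehicle replicate 2 or 3 or combination replicate 1. CX-5461 on panobinostat lowered 10 and raised 2, beside 1.65% and 2.44% of all genes. Alone it lowered 10 and raised 10, beside 7.06% and 9.68%. NDC80, of the outer kinetochore, was at 73.4, 71.3 and 72.7 CPM with vehicle, 115, 109.5 and 124 with CX-5461, 27.2, 30.6 and 31.8 with panobinostat and 25, 21.6 and 26.0 with both. CX-5461 alone raised it by 0.68 ± 0.10, and on panobinostat the effect was -0.31 ± 0.12 (edgeR adjusted p = 0.157) and the departure -0.99 ± 0.16. CCNB2, cyclin B2, had an effect of CX-5461 of 0.10 ± 0.12 alone and -0.72 ± 0.15 on panobinostat, where its combination libraries (23.7, 22.8 and 27.3 CPM) lay below those with panobinostat (41.0, 40.6 and 40.1 CPM).

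PLK1, the kinase that drives entry into mitosis, was lowest with the pair. It was at 32.4, 31.8 and 31.0 CPM with vehicle, 12.7, 15.4 and 19.9 with CX-5461, 10.1, 7.18 and 8.09 with panobinostat and 1.14, 1.16 and 2.95 with both. All combination libraries lay below the 9 others. The departure of -1.28 ± 0.37 (edgeR adjusted p = 0.0402) was lost without any of 9 libraries in turn, among them panobinostat replicate 1 (edgeR adjusted p up to 0.156), and with limma-voom. Its linear departure was 9.07 CPM, of the opposite sign. For CCNB1, cyclin B1, CX-5461 lowered the level in both settings (log2 change -0.70 ± 0.14 alone and -1.30 ± 0.19 on panobinostat), and the departure of -0.60 ± 0.24 did not pass (edgeR adjusted p = 0.153). Of 60 genes of DNA damage signalling and repair 3 departed below 0, XPC, FANCG (-0.69 ± 0.14) and FANCI (-0.64 ± 0.17), the last 2 from the Fanconi pathway of crosslink repair, and 0 above, beside 3.65% and 1.87% of all genes. The count below 0 was 7 without panobinostat replicate 1. The call of FANCI was lost without any of 5 libraries in turn (edgeR adjusted p up to 0.105).

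Of 33 plasma cell identity genes, 2 departed above 0 and 2 below (median -0.012, quartiles -0.35 and 0.29), beside 1.87% and 3.65% of all genes. With panobinostat replicate 1 left out, 6 departed below 0 and CX-5461 on panobinostat lowered 17. Without 1 of the other libraries the counts were 1 to 3 above and 1 to 2 below. CX-5461 lowered 13 alone (median -0.33) and 12 on panobinostat (median -0.38), beside 7.06% and 1.65% of all genes. It raised 1 and 0, beside 9.68% and 2.44%. IRF4 (NCBI Gene 3662), the transcription factor on which myeloma cells depend, was at 287, 314 and 295 CPM with vehicle, 118, 125 and 129 with CX-5461, 141, 175 and 187 with panobinostat and 92.1, 111 and 94.8 with both. All combination libraries lay below the 9 others, yet above the additive level of 69.9 CPM. The departure of 0.51 ± 0.15 (edgeR adjusted p = 0.0473) was lost without any of 10 libraries in turn, panobinostat replicate 1 among them, and with library size alone or a stricter filter. XBP1, a factor of secretory cells, PRDM1, a repressor that drives plasma cell fate, and TNFRSF17, which encodes the surface receptor BCMA, had departures of 0.12 ± 0.15, -0.29 ± 0.35 and 0.15 ± 0.31 that did not pass (edgeR adjusted p = 0.721, 0.713 and 0.852). Without panobinostat replicate 1, PRDM1 departed by -0.58 and passed (edgeR adjusted p = 0.0336).

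The adhesion receptor CD44 and the elongation factor ELL2 departed below 0. CD44 was at 75.2, 93.3 and 77.2 CPM with panobinostat and 42.6, 55.4 and 43.7 with both, without overlap, and CX-5461 lowered it there (log2 change -0.79 ± 0.12) while alone its effect was -0.16 ± 0.11. Its departure of -0.64 ± 0.16 was lost without any of 5 libraries in turn (edgeR adjusted p up to 0.0708). ELL2, which directs the switch to secreted antibody, went from 0.33 ± 0.14 alone to -0.60 ± 0.13 on panobinostat, a departure of -0.93 ± 0.19 (edgeR adjusted p = 0.00351). FKBP11, a prolyl isomerase of secretory cells, departed above 0, by 0.97 ± 0.22.

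The genes with the largest departures below 0 were CREB5, CDKN1A, TNFSF9, CYSRT1, APOBEC3H, DTX4, AREG, TENT5A, IFIT3 and DPYSL3. They were taken by size among genes with average log2 CPM of at least 3 and at least 10 counts in each group. CREB5, a transcription factor that binds cyclic AMP elements, was at 1.74, 2.63 and 1.66 CPM with vehicle, 25.3, 50.6 and 24.6 with CX-5461, 29.6, 36.6 and 39.3 with panobinostat and 24.4, 27.6 and 27.7 with both. The combination libraries overlapped those with CX-5461 and lay below those with panobinostat, and the departure was -4.48 ± 0.41 (edgeR adjusted p = 1.75e-06). TNFSF9, the ligand of the T cell receptor 4-1BB, was at 5.23, 3.95 and 3.82 CPM with vehicle, 65.2, 59.4 and 52.2 with CX-5461, 62.2, 35 and 33.7 with panobinostat and 67.5, 53 and 59.8 with both. The treated groups overlapped, and its departure was -3.29 ± 0.31 (edgeR adjusted p = 1.31e-06).

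Panobinostat lowered 1 of these 10, APOBEC3H, an antiviral cytidine deaminase. It reached 50.7, 46.2 and 49.5 CPM with CX-5461 from 4.88, 5.48 and 7.80 with vehicle, and was at 2.61, 4.03 and 2.82 with panobinostat and 3.22, 1.83 and 4.06 with both. The response to CX-5461 was thus 2.99 ± 0.19 alone and -0.085 ± 0.31 on panobinostat, with a departure of -3.08 ± 0.38. AREG, a growth factor that binds the EGF receptor, illustrates the scale: it was at 1.92, 1.10 and 1.66 CPM with vehicle, 18.8, 16.7 and 10.4 with CX-5461, 71.8, 54.5 and 70.6 with panobinostat and 85.3, 82.5 and 82.1 with both. The log2 departure was -2.89 ± 0.32, while on the linear scale the combination was 3.96 CPM above the sum of the single effects. That linear value is smaller than its standard error, so its sign is not settled. TENT5A, a poly(A) polymerase, departed by -2.74 ± 0.35, DTX4, a ubiquitin ligase, by -2.90 ± 0.38, CYSRT1 by -3.26 ± 0.45 and DPYSL3, a protein of axon growth, by -2.49 ± 0.36.

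The largest departures above 0 by the same rule included those of FRMD3, METTL1, SLC7A5, TMEM177, GNG7, SPOUT1, AKAP19, NOP16 and PPAN. GNG7, a G protein subunit, was at 116, 152 and 115 CPM with vehicle, 51.5, 54.1 and 47.3 with CX-5461, 150.0, 134 and 163 with panobinostat and 167, 129 and 166 with both. The CX-5461 libraries alone were low, and the departure was 1.37 ± 0.17.

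Modifiers of RNA were among them. METTL1, which methylates transfer RNA, was at 19.7, 26.1 and 26.5 CPM with vehicle, 14.5, 17.9 and 20.8 with CX-5461, 2.61, 2.28 and 2.45 with panobinostat and 7, 5.15 and 7.75 with both. CX-5461 raised it on panobinostat, by 1.43 ± 0.28 (edgeR adjusted p = 0.00318), without overlap, and its effect alone was -0.44 ± 0.17 (edgeR adjusted p = 0.0868), a departure of 1.86 ± 0.33. SPOUT1, a putative methyltransferase, departed by 1.34 ± 0.23, TMEM177, a mitochondrial assembly factor, by 1.69 ± 0.34, and AKAP19 by 1.34 ± 0.34. PPAN, a nucleolar factor that shares exons with a readthrough gene, was at 3.22, 2.10 and 2.64 CPM with panobinostat and 3.22, 6.15 and 4.43 with both, and its departure of 1.30 ± 0.36 was lost without any of 7 libraries in turn (edgeR adjusted p up to 0.132). That of FRMD3, 2.43 ± 0.67, was lost without any of 8 libraries, among them panobinostat replicate 1 (edgeR adjusted p up to 0.119), and the calls of both were lost with limma-voom.

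Few departing genes lay outside the range of the other groups in the combination, though a somewhat larger share than of all genes. All 3 combination libraries lay above the 9 others for 605 of the 12030 genes (5.03%) and below them for 452 (3.76%). Among the 225 genes that departed above 0 this held for 27 (19 above and 8 below), or 12%. Among the 439 below 0 it held for 55 (12 above and 43 below), or 12.5%. Over all 12030 genes the share was 8.79%. The combination libraries enter both the departure and this count, so the comparison is a description. For the other departing genes at least 1 combination library lay within the range of the 9 others. Of departing genes whose average log2 CPM was at least 3, 15 combined a departure above 0 with the highest levels and 35 a departure below 0 with the lowest.

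Among the 15 were the mitochondrial genes SPG7 and TARS2. SPG7, a mitochondrial protease, was at 30.2, 34.9 and 37.0 CPM with vehicle, 25.3, 27.9 and 26.5 with CX-5461, 27.6, 38.2 and 36.5 with panobinostat and 43.5, 47.0 and 47.4 with both, a departure of 0.78 ± 0.19 (edgeR adjusted p = 0.0119). TARS2, the mitochondrial threonyl transfer RNA synthetase, departed by 0.66 ± 0.19, lost without any of 9 libraries in turn (edgeR adjusted p up to 0.124), with library size alone and with DESeq2. UNC119, a lipid-binding trafficking protein, was at 69.0, 67.6 and 65.7 CPM with panobinostat and 83.2, 91.4 and 89.6 with both, and departed by 0.77 ± 0.17. MILIP, a long noncoding RNA, went from 17.7, 16.6 and 18.3 to 32.9, 28.8 and 35.8 CPM and departed by 1.17 ± 0.25, and ADAM15, a metalloprotease, by 0.70 ± 0.16.

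Among the 35, besides BCL2L1, PLK1 and BTG2, were ITGB8, TUBB4B and ORAI3. ITGB8, an integrin subunit that activates TGF-beta, was at 16.4, 13.4 and 16.1 CPM with vehicle, 28.9, 25.1 and 25.3 with CX-5461, 7.84, 13 and 15.8 with panobinostat and 4.92, 7.15 and 7.19 with both. CX-5461 raised it alone, by 0.78 ± 0.19, and lowered it on panobinostat (log2 change -0.93 ± 0.23), with a departure of -1.71 ± 0.29 (edgeR adjusted p = 6.02e-04). TUBB4B, a beta tubulin with near-identical copies among which the counting could split reads, was at 57.1, 39.1 and 58.7 CPM with both, against 89.1, 63.4 and 72.3 with vehicle, and departed by -1.22 ± 0.26. ORAI3, a calcium channel subunit, departed by -1.16 ± 0.21.

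In JJN3, labelled as p53 null, edgeR called 0 of 11411 genes (0%) for the departure, against 664 in MM1.S. At an unadjusted p under 0.05 it gave 564 there and 2305 in MM1.S, limma-voom called 0 and DESeq2 called 21 in JJN3, and the common coefficient of variation was 0.154 in JJN3 and 0.107 in MM1.S. The difference between the lines was tested in 1 fit of all 24 libraries. Of 12872 genes, 36 (0.28%) had a departure in JJN3 above that in MM1.S and 2 (0.0155%) below it. Without MM1.S vehicle replicate 1 the sum of 38 became 25. The lines differ in more than p53 status, and these differences cannot be told apart.

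Of the p53 targets 11 of 48 differed between the lines, all with the higher value in JJN3, where the median departure of 41 targets was 0.0023. CDKN1A had a departure of -3.66 ± 0.18 in MM1.S and 0.34 ± 0.27 in JJN3, a difference of 4.0 ± 0.33 (edgeR adjusted p = 5.68e-09). TNFSF9 differed by 3.87 ± 0.39, FDXR by 2.93 ± 0.50 and PMAIP1 by 2.68 ± 0.48. CYRIA, a regulator of actin through RAC1, departed by -2.47 ± 0.36 in MM1.S and 0.61 ± 0.51 in JJN3 (edgeR adjusted p = 0.0279 for the difference). In the other direction IQGAP2, a scaffold of the cytoskeleton, was at 0.65 ± 0.22 in MM1.S and -0.80 ± 0.18 in JJN3, and PSMB10, a subunit of the immunoproteasome, at 0.51 ± 0.17 and -0.79 ± 0.22. Neither passed within a line, and the difference passed for both (edgeR adjusted p = 0.00837 and 0.0296). Without panobinostat replicate 1 both departed above 0 in MM1.S (edgeR adjusted p = 0.0281 and 0.0137).

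The ribosome biogenesis list had 0 members with a difference above 0 and 0 below, and a median departure of 0.064 in JJN3 against 0.56 in MM1.S. NOP16 was at -0.080 ± 0.46 in JJN3, and its difference of -1.40 ± 0.53 did not pass (edgeR adjusted p = 0.420). CREB5 had the largest departure below 0 among the 10 genes taken by size in MM1.S. In JJN3 its departure was -1.59 ± 0.55, and the difference of 2.88 ± 0.71 did not pass (edgeR adjusted p = 0.0841).

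**Figure D4:**
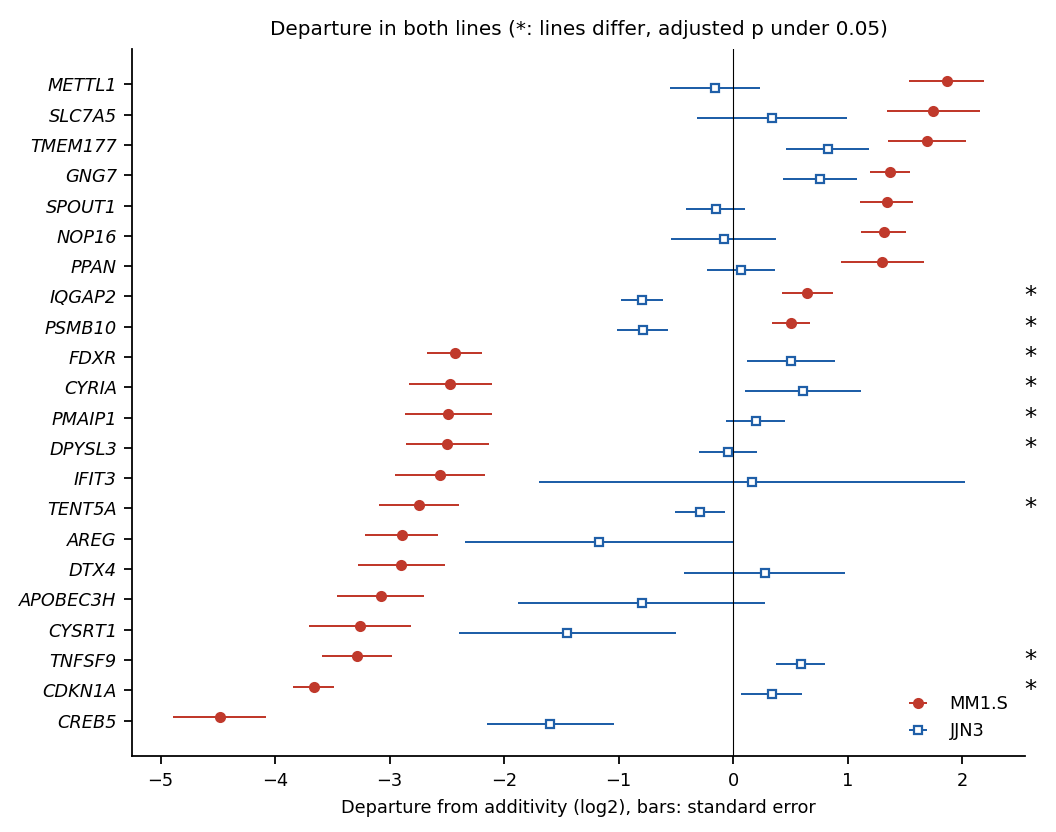
Departure from additivity (x axis, log2, bars show the standard error) in MM1.S (red circles) and JJN3 (blue squares) for 22 genes named by size of departure or by line difference that were tested in both lines; an asterisk marks an adjusted p under 0.05 for the difference. CDKN1A lies at -3.66 in MM1.S and 0.34 in JJN3.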

How the data were processed

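For each line the authors deposited a table of read counts, which are whole numbers and not normalised. Tools named per the submitters' processing notes are limma 3.50.0, featureCounts 2.0.1 and HISAT2 2.2.1. The builds hg19 and GRCh37 are named there with no role or order. Since the annotation, the strand setting and multi-mapping were not stated, antisense partners and near-identical genes cannot be told apart (not given in the sources used here). Symbols were matched by NCBI Gene identifier to a RefSeq table (GRCh38.p14) for 27745 of 28395 genes. The other 650 held at most 0.0387% of a library's counts.

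The 12 MM1.S libraries were fitted as 4 group means with edgeR 4.0.16 in R 4.3.3 (TMM scaling, filterByExpr, robust dispersions, glmQLFit and glmQLFTest, two-sided, Benjamini-Hochberg over all genes tested, threshold 0.05, 8 residual degrees of freedom). Log2 values are given ± standard error, and levels as CPM after TMM scaling for each replicate in order. Additive levels are the mean with CX-5461 times the mean with panobinostat divided by the mean with vehicle. The labels name no molecular identifiers, so limits from counts cover counting error only. Limma 3.58.1 (voom), DESeq2 1.42.0, other scalings, filters and left-out libraries were tried as alternatives. On simulated counts for this contrast (12004 genes), 75 of 100 departures of size 1 and 100 of 100 of size 2 were recovered. The calls also held 16 unchanged genes, or 8.38% of them, above the threshold of 0.05.

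Named genes were the 10 largest departures in each direction with average log2 CPM of at least 3 and at least 10 counts in each group, the 3 members of each of 39 lists with the smallest adjusted p, a panel of 36 genes, the 6 largest with the combination outside all other libraries, and the 5 largest line differences in each direction; other members are named to complete short counts. Members and lists were chosen with earlier results of these data known. Same-numbered libraries had correlations of deviations from -0.088 to 0.43 (9 of 18 pairs over 0.1), and the labels give no shared origin, so the replicate number was not used as a block. Some genes that the rule names are not reported here.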

Additional observations from a re-analysis of the deposited data

Results flagged for a closer look

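For 38 genes the departure from additivity differed between the lines in the test of the difference itself, fitted over all 24 libraries (edgeR adjusted p under 0.05). Values below are the departure in JJN3 minus that in MM1.S on the log2 scale. Among named genes, those of apoptosis and cell cycle arrest were above 0: CDKN1A at 4.0, PMAIP1 at 2.68, BBC3 at 2.10, TNFRSF10B at 1.87, BMF at 1.2 and BIRC3 at 1.37. So were other targets of p53, with FDXR at 2.93, DDB2 at 1.82 and ZMAT3 at 1.44. Stress and interferon genes followed, with DDIT3 at 2.09, IER5 at 2.01 and DTX3L at 2.35. The remaining named genes above 0 were TNFSF9 at 3.87, CYRIA at 3.07, TENT5A at 2.44 and DPYSL3 at 2.44. Below 0 were IQGAP2 at -1.45 and PSMB10 at -1.31.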

How the results depend on the processing

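Of 121 named genes 99 departed, of which 70 did so under all alternatives run for single genes (12 left-out libraries and 8 other settings, not the fit of all 24 libraries) and 29 lost the call under at least 1. No direction reversed under these. All 29 lost it without 1 of the 12 libraries. In MM1.S, 418 genes departed above 0 without panobinostat replicate 1 and 109 without combination replicate 1, which are the extremes over the 12 libraries, and 304 to 624 below 0. With all 24 libraries in the fit, 85 and 245 were called. CX-5461 added to panobinostat gave 175 to 1177 calls without 1 library, the extremes being panobinostat replicates 3 and 1. In JJN3 the count of 0 became 21 with DESeq2, 46 without the low-count filter and 0 to 1 without 1 library. The 38 line differences became 85 with DESeq2, 156 without the filter and 25 to 55 without 1 library. With the replicate block the fit called 400 genes above 0 and 623 below in MM1.S (662 of them called without it). It called 925 for CX-5461 added to panobinostat, 105 in JJN3 and 265 line differences. By the mean correlation over the other groups all 12 libraries went best with their own number, though this did not hold for every single pair. That is a hint from the data and not from the design, and only a number is shared by label. The share of departures above 0 was 33.9% with TMM, 39.3% with the size factors of DESeq2 and 26.9% with library size alone. The causes of these changes were not tested. At these depths a count of 0 allows up to 0.611 CPM in the shallowest library, taking 3 counts as the limit, and genes silent in a group have large standard errors.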

Other observations

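Of 37 lysosome and autophagy genes 4 departed below 0 and 0 above (median -0.22), beside 3.65% and 1.87% of all genes. The count was 0 without vehicle replicate 3, panobinostat replicate 3 or combination replicate 1. It was 1 without vehicle replicate 1 or any 1 CX-5461 library, and 2 without vehicle replicate 2, panobinostat replicate 2 or combination replicate 3. The call of GABARAPL1, a partner of autophagosomes, was lost without any of 10 libraries in turn (edgeR adjusted p up to 0.164), and that of UVRAG without any of 6 (edgeR adjusted p up to 0.112). SQSTM1, the autophagy receptor p62, was at 369, 355 and 374 CPM with vehicle, 713, 727 and 757 with CX-5461, 3639, 2042 and 3223 with panobinostat and 2688, 2416 and 3505 with both. The libraries with panobinostat overlapped with and without CX-5461, and the departure of -1.05 ± 0.24 (edgeR adjusted p = 0.0222) was lost without any of 6 libraries in turn. Of 42 oxidative phosphorylation genes 3 departed above 0 and 0 below, beside 1.87% and 3.65% of all genes. Among the 3 was CYCS, cytochrome c, at 0.53 ± 0.14, whose call was lost without any of 6 libraries in turn (edgeR adjusted p up to 0.0974). The calls of NDUFB10 and NDUFV2, subunits of complex I, were lost without any of 8 and 11 libraries. The count above 0 was 0 without vehicle replicate 1 or 3, CX-5461 replicate 1 or 2, panobinostat replicate 3 or combination replicate 1, and 1 without panobinostat replicate 2 or combination replicate 3. Panobinostat raised 22 of 27 neuronal genes, beside 36.9% of all genes, and 9 of the 27 had a group with no counts. In this list 3 departed below 0 and 1 above, beside 3.65% and 1.87% of all genes (0 to 2 above over the 12 libraries left out in turn). SYT11, a synaptotagmin, was at 1.74, 1.75 and 0.664 CPM with vehicle, 5.00, 5.41 and 4.21 with CX-5461, 108, 109 and 104 with panobinostat and 109, 125 and 114 with both. It departed by -1.72 ± 0.31 on the log2 scale and lay 5.33 CPM above the sum of the single effects on the linear scale. The linear value is close to its standard error.

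Among chromatin and elongation genes, 1 of 15 histone deacetylases departed above 0 and 0 below, beside 1.87% and 3.65% of all genes. The count above 0 was 0 without any of 10 libraries in turn, and with library size alone, limma-voom or a stricter filter. Of 17 genes of the elongation factor P-TEFb and the BET readers 2 departed below 0, beside 3.65% of all genes. They were ELL2 and BRD3 (-0.63 ± 0.15), the latter lost without vehicle replicate 3 (edgeR adjusted p = 0.0551). HEXIM1, the inhibitor of P-TEFb, was raised by panobinostat, by 1.58 ± 0.13, and had a departure of -0.19 ± 0.19 that did not pass (edgeR adjusted p = 0.628). The nuclear long noncoding RNA MALAT1 had a departure of -0.095 ± 0.16 that did not pass (edgeR adjusted p = 0.806), although it took 0.438% to 0.595% of the counts with vehicle and 6.73% to 8.65% with both drugs. The topoisomerase genes TOP2A and TOP2B had departures of -0.30 ± 0.16 and 0.17 ± 0.14 that did not pass (edgeR adjusted p = 0.314 and 0.555). ITGAM, an integrin of myeloid cells, is also among the genes with a silent group: it had no counts with vehicle, which allows up to 0.611 CPM, and was at 8.60, 7.69 and 6.18 CPM with CX-5461, 1.01, 1.58 and 0.941 with panobinostat and 0.378, 1.33 and 0.922 with both. Of 8 myeloid markers examined for cell type, 1, CD68, was above 1 CPM with vehicle.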
